A study of Mus musculus with 7 samples.

Results

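Epidermal keratinocytes of transplanted mice were compared between a library labelled bone marrow transplantation (BMT) and a library labelled BMT plus T cells (BMT + T cells), within each of 5 keratinocyte clusters. The members were all cells that the deposited annotation places in the clusters Basal, Differentiated, Follicular, KC_Four and KC_Five, 5426 cells of 18106 in the whole series, with 2836 cells in the BMT library and 2590 in the BMT + T cells library. Both libraries came from the epidermis of male CD45.2 C57BL/6 hosts, 3 weeks after lethal irradiation and transfer of female CD45.1 C57BL/6 bone marrow, and both held cells sorted as CD45-. In the BMT + T cells group the marrow was given with T cells. Per the study's methods the T cells were of the CD4 lineage together with CD8 cells of Matahari mice, whose transgenic receptor recognizes the male antigen HY. The series' design text describes T cell transfer without naming a group that went without. The study's results and a figure legend describe the keratinocytes as cells after BMT + T cells, and the legend gives pooled mice. The sample titles number the libraries as replicates, whereas the treatment labels separate them. The comparison below is therefore between these labels. It rested on 2 of the 7 samples of the series, 1 library a side, so no difference between the labels could be tested against the spread between mice.

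The expression values were recovered as whole unique molecular identifiers (UMIs), 27817737 in the BMT library and 24959785 in the BMT + T cells library. Depth was close between the labels, with a median of 8895.5 against 8834 UMIs per cell, and the libraries shared 2 cell barcodes. Basal cells were 59.4% of the BMT library (exact Clopper-Pearson 95% interval 57.5 to 61.2%) and 66.1% of the BMT + T cells library (64.2 to 67.9%). Differentiated cells were 17.4% (16.0 to 18.8%) and 13.6% (12.3 to 15.01%), and KC_Four cells were 7.93% (6.97 to 8.99%) and 5.79% (4.92 to 6.76%). The intervals of the 2 libraries overlapped for Follicular cells, at 9.80% and 10.0%, and for KC_Five cells, at 5.50% and 4.48%. All intervals here cover counting error only, and none covers the spread between animals.

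The cluster names were checked against known markers. Levels are given throughout as UMIs per 10000 UMIs of the same cluster and library. The basal keratins Krt5 and Krt14 were highest in Basal cells, at 179 and 396 in the BMT library. The suprabasal genes Krt10 and Krtdap were highest in Differentiated cells, at 154 and 134. Krt79, a keratin of the upper hair follicle, was at 26.7 and 24.98 in Follicular cells of the 2 libraries and at most 0.044 elsewhere, while Plet1, another follicle marker, was at most 0.0122 in every cluster, Follicular included. The 2 numbered clusters carried basal keratins and proliferation genes. Top2a, which untangles DNA in dividing cells, was at 7.03 and 7.94 in KC_Four, and Cdc20, an activator of mitotic exit, was at 8.75 and 8.63 in KC_Five.

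Keratinocytes are targets and partners of T cells in skin graft-versus-host disease. Interferon-gamma released by T cells acts through the receptor IFNGR and the kinases JAK1 and JAK2, and its target genes often carry GAS elements. Induced target genes include the heavy chains and the immunoproteasome of MHC class I presentation, families of GTPases that guard against intracellular microbes, and the chemokines CXCL9 and CXCL10, which attract T cells through CXCR3. Class II genes, normally restricted to professional antigen presenting cells, can also be switched on in keratinocytes through the coactivator CIITA, which works at promoters that carry a Y box. Type I interferons act through a complex that includes IRF9 at ISRE elements, and their target genes overlap with those of interferon-gamma.

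Promoters of 7 genes with a higher level in BMT + T cells are shown because each carries, in the 150 bases before its RefSeq start (build GRCm38.p6), the letters of one of these elements. The letters searched, on both strands, were TTCNNNGAA for GAS, GAAA followed by any 2 bases and GAAA for ISRE, and TGATTGG for the Y box, and the capitals mark the letters named for each gene. B2m, the class I light chain, has ISRE letters (chr2:122147537-122147686, plus strand). Psmb8, an immunoproteasome subunit, has GAS letters (chr17:34198045-34198194, plus strand). Of the guanylate binding proteins, Gbp2 has ISRE letters (chr3:142620513-142620662, plus strand) and Gbp7 has GAS letters at both marked places (chr3:142530186-142530335, plus strand). Gbp7 also has ISRE letters in this stretch, left in lower case. The class I gene H2-Q7 (chr17:35439005-35439154, plus strand) and the class II genes H2-Aa (chr17:34287824-34287973, minus strand) and H2-Eb1 (chr17:34305717-34305866, plus strand) have Y box letters.
B2m: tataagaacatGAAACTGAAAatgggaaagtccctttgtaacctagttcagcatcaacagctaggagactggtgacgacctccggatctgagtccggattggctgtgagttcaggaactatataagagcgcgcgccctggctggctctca
Psmb8: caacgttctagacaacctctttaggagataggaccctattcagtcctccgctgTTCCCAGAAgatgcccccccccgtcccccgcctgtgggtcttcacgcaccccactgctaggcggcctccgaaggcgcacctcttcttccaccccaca
Gbp2: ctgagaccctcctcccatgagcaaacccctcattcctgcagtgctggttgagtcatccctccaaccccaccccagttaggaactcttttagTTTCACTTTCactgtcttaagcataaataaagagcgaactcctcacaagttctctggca
Gbp7: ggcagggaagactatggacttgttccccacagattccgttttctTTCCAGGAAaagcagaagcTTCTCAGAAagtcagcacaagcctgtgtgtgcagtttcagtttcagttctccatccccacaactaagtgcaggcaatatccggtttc
H2-Q7: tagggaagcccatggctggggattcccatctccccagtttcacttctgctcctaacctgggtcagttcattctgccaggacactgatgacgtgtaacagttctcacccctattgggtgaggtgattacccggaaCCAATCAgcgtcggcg
H2-Aa: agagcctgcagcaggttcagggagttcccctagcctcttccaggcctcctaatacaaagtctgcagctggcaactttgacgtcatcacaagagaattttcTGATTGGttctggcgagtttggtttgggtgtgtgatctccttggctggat
H2-Eb1: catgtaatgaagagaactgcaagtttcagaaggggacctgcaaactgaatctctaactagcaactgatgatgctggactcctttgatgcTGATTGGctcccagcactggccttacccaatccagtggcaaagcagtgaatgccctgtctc

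Over the 250 bases before the start, 7.02% of 32851 RefSeq promoters hold the GAS letters, 2.98% the ISRE letters and 7.23% the Y box letters. Among 20 class I presentation genes with a window, 9 hold Y box letters, 3 hold ISRE letters and 2 hold GAS letters. Of 4 class II genes with a window, 3 hold Y box letters. All 4 GTPase genes with a window hold ISRE letters, and 2 also hold GAS letters. Of 18 antiviral genes, 6 hold ISRE letters and 4 hold GAS letters. A match of letters is a description of the sequence and was not tied to binding in these cells.

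For each gene and cluster, the level in BMT + T cells was divided by the level in BMT, and the log2 of this ratio is given with a 95% exact binomial interval for the split of UMIs between the libraries. A gene was measured in a cluster where both libraries together held at least 100 of its UMIs, and it was counted as past the fold where the ratio was 2-fold or more in either direction. In Basal cells, 79 of 9535 measured genes (0.829%) were past the fold upward and 12 (0.126%) downward, or 0.954% in either direction. In Differentiated cells, the counts were 22 of 6803 (0.323%) upward and 17 (0.25%) downward, or 0.573% in either. Follicular cells had 20 of 5860 (0.341%) upward and 36 (0.614%) downward, or 0.956% in either. KC_Four had 28 of 5943 (0.471%) upward and 12 (0.202%) downward, or 0.673%, and KC_Five had 14 of 3940 (0.355%) and 5 (0.127%), or 0.482%. The median ratio of all measured genes lay between -0.03 and 0.01 on the log2 scale in the 5 clusters, and the 5th and 95th percentiles in Basal cells were -0.32 and 0.37.

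Of 3770 genes measured in all 5 clusters, 5 (0.133%) were past the fold upward in every cluster, and 0 (0%) were past it downward in every cluster. The 5 genes were Cd74, the invariant chain of class II, H2-Q7, a nonclassical class I heavy chain, the interferon-induced gene Ifi27l2a, Xaf1, an interferon-induced partner of cell death regulators, and B2m. With the mildest criterion, the same sign in all 5 clusters, 394 genes (10.5%) were higher and 679 (18%) lower in BMT + T cells. Of 156 genes past the fold in any cluster, 110 were past it in a single cluster, but many of these were measured in few clusters. Of the 37 measured in all 5 clusters, 16 were past it in a single cluster.

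**Figure D1:**
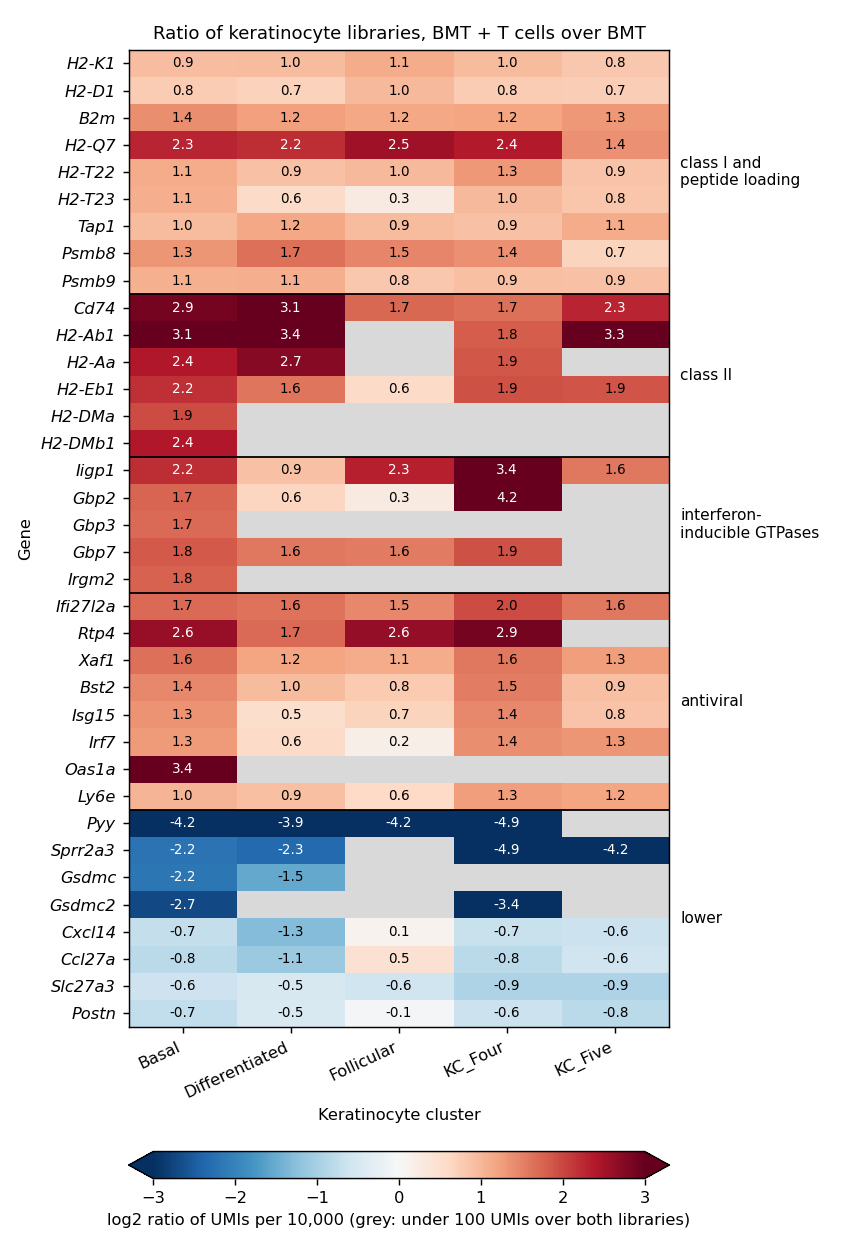
Log2 ratio of UMIs per 10000, BMT + T cells over BMT, for selected genes (rows) in the 5 keratinocyte clusters (columns). Red cells are higher and blue cells lower in BMT + T cells, and grey marks genes with under 100 UMIs over both libraries. The rows of class I and class II presentation, GTPases and antiviral genes are red in every measured cluster, and the blue rows are deepest for Pyy and Sprr2a3.

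MHC class I presentation genes had a higher summed level in BMT + T cells in every cluster. Of 22 listed genes, 21 were measured, 19 had a mean ratio above 0 over the clusters (50.3% of all 9724 genes measured in any cluster did) and 7 were past the fold upward by their mean (0.627% of all genes), with a median log2 ratio of 0.79 against 0.00 for all genes. Their summed level was 45.22 in BMT and 72.1 in BMT + T cells in Basal cells, and 37.5 and 62.5 in Follicular cells. H2-K1, a classical heavy chain that presents peptides to CD8 T cells, was at 10.0, 9.07, 7.62, 9.03 and 11.3 in Basal, Differentiated, Follicular, KC_Four and KC_Five cells of the BMT library. In the BMT + T cells library it was at 19.0, 17.6, 16.4, 17.5 and 19.6, higher in each cluster, as were 10.5% of the genes measured in all 5 clusters. The clusters of a label come from 1 library and are not replicates. The log2 ratios of H2-K1 were 0.93 (0.90 to 0.95), 0.95, 1.11, 0.95 and 0.80 (0.71 to 0.89). H2-D1, the other classical heavy chain of this strain, had ratios of 0.75, 0.70, 0.97, 0.77 and 0.73.

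B2m, without which class I does not reach the surface, was at 1.23 in BMT and 3.25 in BMT + T cells in Basal cells, and its log2 ratio varied little between clusters, from 1.17 to 1.40. H2-Q7 had the largest mean ratio of the class I genes measured in all 5 clusters, at 2.29 (2.14 to 2.44), 2.21, 2.54, 2.38 and 1.37 (0.97 to 1.77), where KC_Five was the lowest. Reads of H2-Q7 and its near copies in the Q and T regions may be shared, so that the split among them is uncertain. Psmb8 and Psmb9, subunits that the immunoproteasome uses to cut peptides for class I, had log2 ratios of 1.33 and 1.07 in Basal cells, and of 0.67 and 0.88 in KC_Five. Tap1, which pumps peptides into the endoplasmic reticulum, had ratios from 0.88 to 1.17. Chaperones that fold many other glycoproteins besides class I were close to 0, with ratios in Basal cells of -0.06 for Calr, 0.04 for Canx and -0.13 for Pdia3.

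Class II genes had low levels that were higher in BMT + T cells, and the largest median of mean ratios of any list. Of 10 listed genes, 6 were measured and all 6 were past the fold by their mean, beside 0.627% of all genes, with a median log2 ratio of 2.33. Cd74 had 455 UMIs in BMT and 3408 in BMT + T cells in Basal cells, 98 and 603 in Differentiated, 55 and 163 in Follicular, 149 and 327 in KC_Four and 67 and 262 in KC_Five. Its level in Basal cells was 7.31-fold higher in BMT + T cells, with log2 ratios of 2.87 (2.73 to 3.01) there and 3.12, 1.73, 1.66 and 2.28 in the other clusters. The class II chains followed the same direction. H2-Ab1 was at 3.11, 3.38, 1.82 and 3.30 in the 4 clusters where it was measured, H2-Aa was at 2.40 in Basal and 2.73 in Differentiated cells, and the peptide loading factors H2-DMa and H2-DMb1 were at 1.95 and 2.41 in Basal cells. H2-Eb1 was the member that differed most between clusters, at 2.19 (2.02 to 2.36) in Basal and 0.58 (0.11 to 1.05) in Follicular cells. Ciita itself was close to absent, with 1 UMI over all clusters in BMT and 2 in BMT + T cells, so that no ratio could be read at this depth.

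The differences were also read as shares of cells with at least 1 UMI, after each cell was thinned at random to 2500 UMIs. No cell was shallower. H2-K1 was detected in 79.0% of BMT and 96.4% of BMT + T cells Basal cells (94.1% and 99.7% before thinning), and Ifi27l2a in 31.1% and 59.99% (55.4% and 78.2%). Cd74 was detected in 3.33% (exact 95% interval 2.52 to 4.30%) of BMT and 12.2% (10.7 to 13.9%) of BMT + T cells Basal cells, or 5.52% and 19.3% before thinning. In Differentiated cells Cd74 shares were 2.03% and 13.0%, whereas in Follicular cells they were 3.60% (1.74 to 6.52%) and 4.63% (2.42 to 7.95%), with overlapping intervals. In Follicular cells, 5 cells held 80.0% of the Cd74 UMIs of BMT and 89.0% of those of BMT + T cells, and without these cells in each library the log2 ratio of Cd74 there was 0.87. As a measure of free RNA, the follicle keratin Krt79 was found, after thinning, in 30.9% and 29.0% of Follicular cells and in 0 to 1.42% of cells of the other clusters, whose median depths ranged from 8053 to 16877.5 UMIs.

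**Figure D2:**
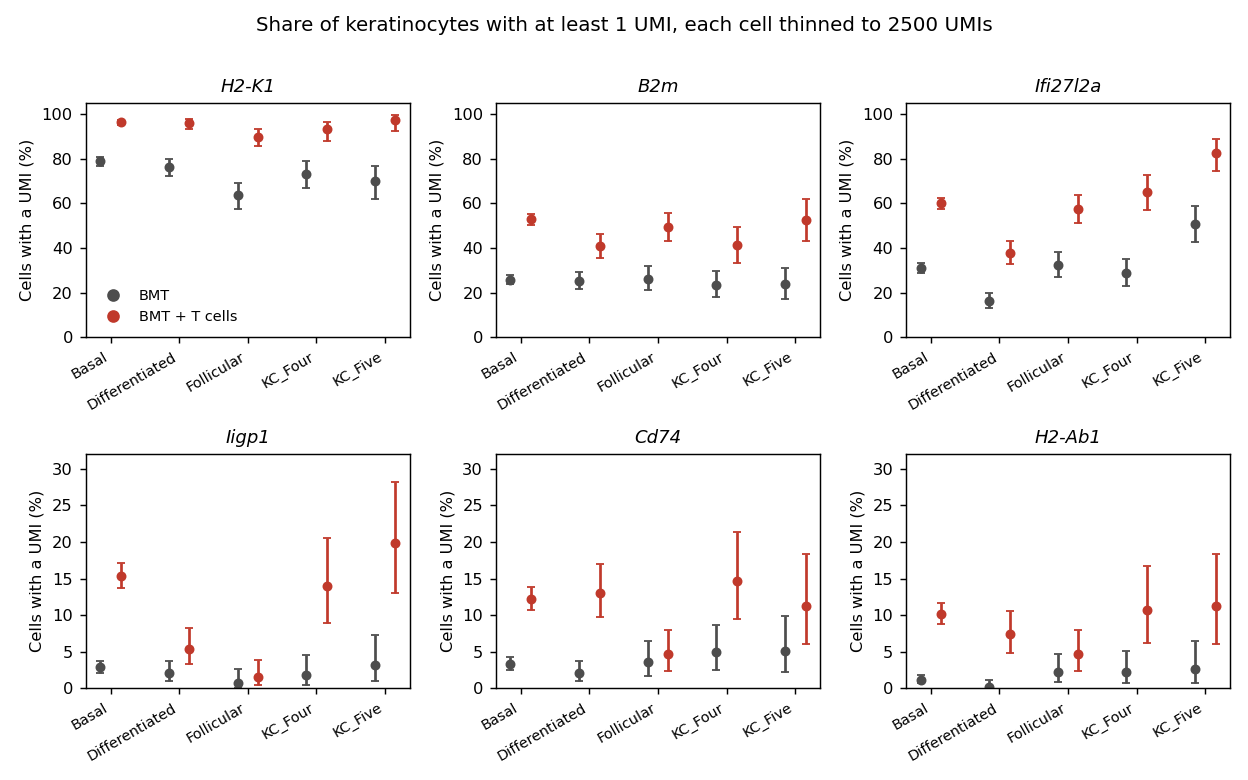
Share of cells with at least 1 UMI (y axis, %) of H2-K1, B2m, Ifi27l2a, Iigp1, Cd74 and H2-Ab1 in each cluster (x axis) and library, with exact 95% binomial intervals, each cell thinned to 2500 UMIs. The BMT + T cells points lie above the BMT points in every panel, and the intervals overlap for Iigp1 in Differentiated and Follicular cells and for Cd74 and H2-Ab1 in Follicular and KC_Five cells.

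Class I and class II genes differed in the share of cells in which a UMI was found, which also depends on their level. Cd74 was found in 19.3% of BMT + T cells Basal cells before thinning and in 12.2% after. Cells without a class II UMI after thinning can therefore still hold class II RNA. After thinning, 104 Basal cells of BMT (6.18%, 5.07 to 7.43%) and 378 of BMT + T cells (22.1%, 20.1 to 24.1%) held a UMI of Cd74, H2-Aa, H2-Ab1 or H2-Eb1, here called a class II UMI. In Follicular cells the shares were 7.55% (4.74 to 11.3%) and 13.5% (9.596 to 18.3%). Cells without such a UMI still differed between the libraries. H2-K1 in Basal cells without class II UMIs was at a mean of 2.62 UMIs per thinned cell in BMT and 4.61 in BMT + T cells, a log2 ratio of 0.81 (0.76 to 0.87), and Ifi27l2a had a ratio of 1.75 (1.64 to 1.86) in the same cells. Within the BMT + T cells library, Basal cells with a class II UMI had more H2-K1 than those without (log2 ratio 0.42), about as much Ifi27l2a (0.04), and more Iigp1 (1.43), Gbp2 (2.70) and Cxcl9 (4.61). In the other clusters the Ifi27l2a value was 0.59 in Differentiated, -0.09 in Follicular, 0.61 in KC_Four and 0.64 in KC_Five cells.

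Basal cells with class II UMIs were also examined, on thinned counts, for keratin and leukocyte genes. Krt14 averaged 93.1 UMIs per thinned cell in the 378 BMT + T cells Basal cells with class II UMIs and 95.4 in the 1334 without. After thinning, the leukocyte gene Ptprc, the myeloid adaptor Tyrobp and the Langerhans cell gene Cd207 had 0 UMIs in these 378 cells. This allows a share of cells with a UMI at that depth of up to 0.794%. Of the other leukocyte genes examined in them, Fcer1g had 1 UMI and Lyz2 had 2. The few class II cells of the BMT library were themselves high for Iigp1, at 0.673 UMIs per thinned cell against 0.577 in those of the BMT + T cells library, and 0.0285 in BMT Basal cells without class II UMIs.

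**Figure D3:**
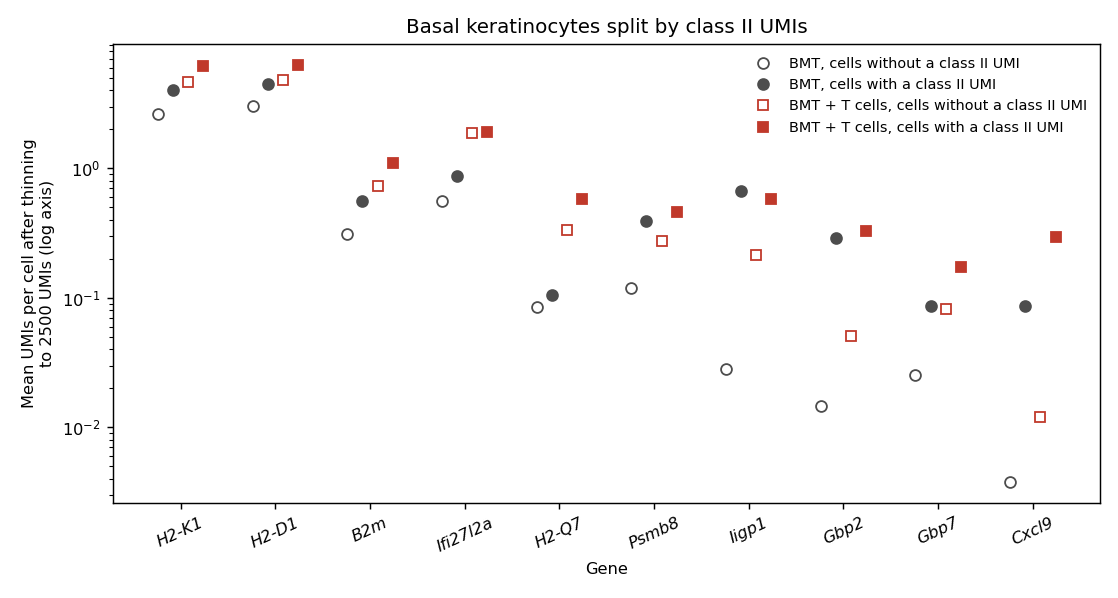
Mean UMIs per Basal cell after thinning to 2500 UMIs (y axis, log scale) for 10 genes (x axis), in cells with (filled) and without (open) a class II UMI of the BMT library (grey circles) and of the BMT + T cells library (red squares). In these Basal cells, for Ifi27l2a, the open and filled red squares lie together at 1.87 and 1.92, and for Cxcl9 they lie far apart at 0.012 and 0.294.

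Interferon-inducible GTPases, which attack the vacuoles of intracellular microbes, were low but higher in BMT + T cells. Of 18 listed genes 5 were measured, all 5 were past the fold by their mean, beside 0.627% of all genes, and their median log2 ratio was 1.73. Gbp7 was alike between clusters, at 1.84 (1.60 to 2.09) in Basal, 1.58 in Differentiated, 1.56 in Follicular and 1.92 in KC_Four cells. Iigp1 ranged from 0.87 (0.50 to 1.24) in Differentiated cells to 3.37 (2.86 to 3.91) in KC_Four, and was at 2.32 in Follicular cells, where 5 cells held 94.7% and 91.8% of its UMIs. Without the 5 highest cells of each library the Follicular ratio of Iigp1 was 2.97, but few UMIs were left. Iigp1 was found in 2.16% of 278 Follicular cells of BMT and 3.47% of 259 of BMT + T cells. After thinning the shares were 0.719% and 1.54%, with overlapping intervals. Gbp2 had 12 UMIs in BMT and 148 in BMT + T cells in KC_Four, a ratio of 4.15 (3.30 to 5.14). Of the latter UMIs 5 cells held 76.4%, and without the 5 highest cells of each library the ratio was 4.07. In BMT, Gbp2 was found in 3.56% of 225 KC_Four cells, so few of its 12 UMIs were left in that value. Gbp2 was at 1.74 (1.52 to 1.97) in Basal and 0.27 (-0.19 to 0.73) in Follicular cells. Iigp1 has close relatives in the genome, and the split of reads among them is uncertain.

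All 23 measured antiviral interferon genes of 39 listed had a mean ratio above 0, and 12 were past the fold by their mean, beside 50.3% and 0.627% of all genes, with a median of 1.13. Ifi27l2a was at 2.35 UMIs per 10000 in BMT and 7.61 in BMT + T cells in Basal cells, and at 5.11 and 15.3 in KC_Five. Before thinning, the share of cells with an Ifi27l2a UMI ranged from 39.1% in BMT Differentiated cells to 98.3% in BMT + T cells KC_Five cells. Its log2 ratios stayed between 1.45 and 1.95. Rtp4, a chaperone-like interferon-induced gene, had ratios of 2.62, 1.71, 2.63 and 2.87 in the clusters where it was measured, and Xaf1 had 1.65, 1.19, 1.11, 1.57 and 1.26. Some members were less even. Isg15, a ubiquitin-like modifier, was at 1.34 (1.22 to 1.47) in Basal and 0.52 (0.23 to 0.81) in Differentiated cells, and Irf7, the master regulator of type I interferon, was at 1.27 (1.08 to 1.46) in Basal and 0.19 (-0.35 to 0.72) in Follicular cells. Oas1a, a sensor of double-stranded RNA, had 20 and 209 UMIs in Basal cells, a ratio of 3.35 (2.69 to 4.09). Ifitm3, an abundant restriction factor, differed little, at 0.12 in Basal cells.

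The signalling genes upstream were mixed. Of 15 listed, 12 were measured and 10 had a mean above 0, beside 50.3% of all genes. Stat2 was at 1.38 and Nlrc5, the class I counterpart of Ciita, at 1.07 in Basal cells, and Irf9 was at 0.84. The receptor chain Ifngr1 (0.07), the kinase Jak1 (-0.04) and the feedback inhibitor Socs1 (-0.01) were near 0 in the same cells. Irf1 was under the limit of UMIs, with 36 in BMT and 54 in BMT + T cells Basal cells.

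Several chemokines were carried by very few cells. Of 17 listed, 9 were measured, with a median log2 ratio of 0.37. Cxcl9 had 74 UMIs in 10 cells of BMT and 548 UMIs in 51 cells of BMT + T cells among Basal cells, a ratio of 2.85 (2.50 to 3.22), and 5 cells held 90.5% and 58.6% of these. Cxcl10 had 3 UMIs in BMT and 12 in BMT + T cells over all clusters. Cxcl2, which attracts neutrophils, had 170 UMIs in 8 Basal cells of BMT + T cells and 5 UMIs in 2 cells of BMT. Ccl8 had 148 UMIs in 19 Basal cells of BMT + T cells and 3 in 1 cell of BMT, a ratio of 5.59 (4.01 to 7.88). Ccl5 pointed both ways, with 150 UMIs in 1 Differentiated cell of BMT against 0 in BMT + T cells, and 8 against 96 UMIs in Basal cells.

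The constitutive keratinocyte chemokines were lower outside the hair follicle. Cxcl14, made by resting epidermis, was at 6.42 in BMT and 3.93 in BMT + T cells in Basal cells, and its log2 ratios were -0.71 (-0.76 to -0.66), -1.29, 0.12 (-0.03 to 0.26), -0.68 and -0.64 in Basal, Differentiated, Follicular, KC_Four and KC_Five cells. Ccl27a, which draws skin-homing T cells through CCR10, had ratios of -0.80 (-0.87 to -0.73), -1.12, 0.47 (0.35 to 0.58), -0.81 and -0.61. For both genes the Follicular interval overlapped that of none of the other clusters. Ccl27a also met the criterion for a ratio that differs between clusters, given below, with and without its 5 highest cells. Epcam, an adhesion molecule shared by follicle keratinocytes and Langerhans cells, had the same pattern at smaller size, with ratios of -0.55, -0.65, -0.01, -0.42 and -0.59.

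Ligands that T cells touch were mostly under the limit of UMIs. Of 18 listed, 3 were measured, and Lgals9, which encodes galectin-9, was the one above 0 in every cluster, at 0.71 (0.60 to 0.82) in Basal, 1.10 in Differentiated, 0.49 in Follicular, 1.05 in KC_Four and 0.42 in KC_Five cells. Cd274, the checkpoint ligand PD-L1, had 13 UMIs in 13 Basal cells of BMT and 31 UMIs in 31 cells of BMT + T cells.

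Immediate early genes, which respond within minutes to growth factors and to cell dissociation, were higher in part. Of 18 listed, 17 were measured, 14 had a mean above 0 and 2 were past the fold by their mean, beside 50.3% and 0.627% of all genes, with a median of 0.28. Fos was at 0.667 and 1.59 in Basal cells, with log2 ratios of 1.26 (1.15 to 1.36), 1.29, 1.48, 1.90 and 0.70 (0.19 to 1.22). Atf3 was at 1.08, 1.24, 2.20 and 1.91 in the clusters where it was measured. Egr1 ranged from 0.31 to 0.93, and Jun, the partner of Fos, was near 0, from -0.03 to 0.14.

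Several genes had much lower levels in BMT + T cells, among them Pyy, Sprr2a3 and the gasdermin C genes. Pyy, which encodes the gut peptide hormone PYY, had 4045 UMIs in 269 Basal cells of BMT and 227 in 47 cells of BMT + T cells, 3358 and 157 in Differentiated, 350 and 17 in Follicular, 1697 and 40 in KC_Four and 87 and 1 in KC_Five. The level in Basal cells was 18.2-fold higher in BMT, and the log2 ratios were -4.19 (-4.39 to -4.00), -3.92, -4.20 and -4.88 where it was measured. Its UMIs sat in a minority of cells, with 10.3% of BMT and 1.81% of BMT + T cells Basal cells positive after thinning. Sprr2a3, a cornified envelope gene induced in stressed epithelium, had ratios of -2.22 (-2.35 to -2.09), -2.34, -4.85 and -4.20 in Basal, Differentiated, KC_Four and KC_Five cells. Sprr2a3 belongs to a family of near-identical copies, and which copy the reads came from is uncertain.

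Gsdmc and Gsdmc2, pore-forming gasdermins that are also near copies of each other, had log2 ratios of -2.17 (-2.57 to -1.79) and -2.71 (-3.10 to -2.33) in Basal cells. In KC_Four, Gsdmc had 79 UMIs in 39 cells of BMT and 0 in BMT + T cells, at least 18.3-fold lower when 0 is set to a floor of 3 counts per cluster and library. Without the 5 highest cells of each library, these ratios in Basal cells were further from 0, at -4.88 for Pyy, -2.998 for Sprr2a3 and -3.30 for Gsdmc2. The 5 cells are a larger part of the positive cells in BMT + T cells, where fewer were positive. A move away from 0 can therefore come from the check itself. In Follicular cells, where 5 cells held 93.7% of the Pyy UMIs of BMT, the ratio of Pyy without them was -2.71. A single library stood on each side, and whether Pyy, Sprr2a3 and the gasdermins differed by label or by mouse cannot be told apart.

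**Figure D4:**
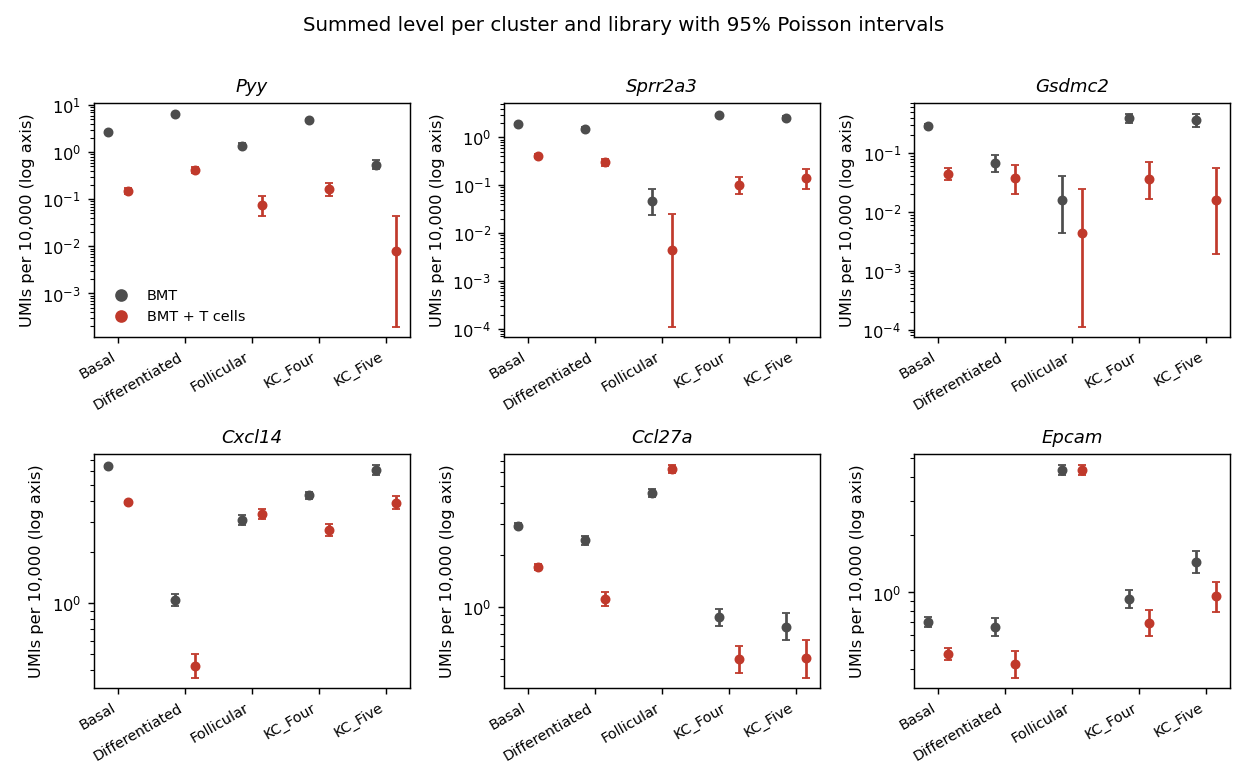
UMIs per 10000 (y axis, log scale) of Pyy, Sprr2a3, Gsdmc2, Cxcl14, Ccl27a and Epcam in each cluster (x axis) of the BMT library (grey) and the BMT + T cells library (red), with exact 95% Poisson intervals. Pyy is lower in BMT + T cells in all clusters, while Cxcl14 and Epcam have overlapping intervals in Follicular cells and Ccl27a is higher there.

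The 12 genes with the lowest mean among those lower in all 5 clusters differed by less than these. Slc27a3, an acyl-CoA synthetase of fatty acid uptake, came first, with log2 ratios of -0.62 (-0.70 to -0.53), -0.48, -0.60, -0.93 and -0.93. Next came the mitochondrial proteins Chchd10 (mean -0.61) and Ethe1 (-0.58), and further members were the sterol enzyme Msmo1 (-0.55), the acyl-CoA binding protein Dbi (-0.44) and Nudt19 (-0.43). Postn, an extracellular matrix protein, had a mean of -0.54 but was at -0.05 (-0.23 to 0.13) in Follicular cells. The others were Tppp3 (-0.51), the actin-severing protein Gsn (-0.49), Rpp40 (-0.46), Epcam (-0.44) and the calcium channel Orai1 (-0.44). None of the 12 was past the fold in more than 1 cluster, and Msmo1 in Follicular cells, at -1.02, was the case that was.

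Cell cycle genes had lower levels in Basal cells of BMT + T cells. All 31 listed genes were measured there and 31 were below 0, with a median of -0.42 against 0.01 for all genes measured in Basal cells. Of the 31, Ube2c alone, at -1.43 (-2.06 to -0.84), was past the fold, beside 12 of 9535 genes (0.126%) downward in Basal cells. Mki67 was at -0.37, Top2a at -0.49 and Cdk1 at -0.70. In KC_Four, the cluster where these genes are highest, 15 of 31 were above 0 and the median was -0.01. These genes help to define KC_Four and KC_Five, so cycling cells assigned to those clusters are outside the Basal values, and the Basal difference and the larger Basal share in BMT + T cells cannot be told apart from how cells were divided among clusters.

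Several other lists were read by the mean over clusters, where the median was 0.00 for all genes and -0.19 for the cell cycle list. Among them, the sterol and barrier lipid list had a median of -0.41 in Follicular cells, beside -0.02 for all genes there. The mean log2 ratios had a median of 0.17 for 15 basal keratins, integrins and laminins, -0.20 for 14 suprabasal differentiation genes, -0.10 for 11 hair follicle and sebaceous genes, -0.23 for 18 sterol and barrier lipid genes, -0.10 for 11 targets of p53, -0.06 for 11 chaperones, 0.04 for 11 targets of Nrf2, -0.06 for 17 cell death genes and 0.13 for 14 factors that act on Langerhans cells. In the last list Il34, the ligand that Langerhans cells depend on, was at 0.14 (0.03 to 0.25) in Basal and -0.11 (-0.45 to 0.22) in Follicular cells. Stress keratins and alarmins varied between clusters. Their median over 20 genes was -0.06, but in Basal cells it was 0.94, and in KC_Five it was -2.59 over 3 members. In Basal cells 9 of 18 measured members were past the fold upward and 1 downward, beside 0.829% and 0.126% of all genes there. Without the 5 highest cells of each library, the Basal ratios of Krt6b and Sprr1a were 0.97 and -0.74, and those of Krt6a and Krt16 were 2.22 and 1.64. For Krt6b no UMI was then left in BMT, so its value is set by the floor of 3 counts.

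A ratio was called different between clusters where it lay at least 1 log2 unit from the median of at least 3 other clusters and its interval overlapped none of theirs. Of 5235 genes measured in enough clusters, 23 (0.439%) met this, in 30 pairs of gene and cluster, of which 10 were in Follicular cells and 8 in KC_Four. When the 5 cells with most UMIs of the gene were left out of each library and cluster, 9 of the 30 pairs still met it. This check was chosen after seeing the data.

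The pairs that did not hold were led by keratins of stressed epidermis. Krt16 in Follicular cells had 1215 UMIs in BMT and 21 in BMT + T cells, a log2 ratio of -5.69 (-6.39 to -5.07). There 5 cells held 99.0% of the former, and without them the ratio was -0.42. In Basal cells Krt16 was at 2.24, with 5 cells holding 72.5% and 81.8% of its UMIs. Krt17 in KC_Five was at -2.59 and moved to -1.31, and in Differentiated cells it moved from -1.43 to 0.26. Cstdc5, a protease inhibitor of the stefin family with near copies, was at 1.48 in Basal and -1.92 in Follicular cells. Krt6a was detected after thinning in 2.14% and 2.04% of Basal cells.

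The pairs that held included lipid, keratin and chemokine genes. Fabp5, a fatty acid binding protein, was at 2.58 in Basal cells, where 5 cells held 76.1% of the UMIs of BMT + T cells, and at 0.87 without them, still apart from the other clusters. Krt6a in KC_Four had 112 UMIs in BMT and 8 in BMT + T cells (-3.28, and -3.80 without 5 cells). The 8 UMIs lay in 4% of 150 cells, so few were left for the latter value. The epidermal metallothionein Mt4 was at -1.06 in KC_Four and -1.11 without 5 cells, and the chloride channel regulator Clca2 was at -1.28 and -1.52. In Follicular cells, Ccl27a (0.47), the exchange factor Trio (0.98) and the mitotic kinesin Kif22 (-1.06) held, as did the stefin Stfa3 (-1.54) and Rsu1 (-1.05) in KC_Five. Of the class II and GTPase genes that met the first criterion, H2-Eb1 in Follicular cells, H2-Ab1 in KC_Four and Gbp2 in Basal and KC_Four cells, none met it without their 5 highest cells. The ratios then were 1.00 for H2-Eb1 in Follicular cells and 2.996 for H2-Ab1 in KC_Four. Those of Gbp2 moved little, from 1.74 to 1.88 in Basal cells and from 4.15 to 4.07 in KC_Four, where few UMIs were left in BMT.

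**Figure D5:**
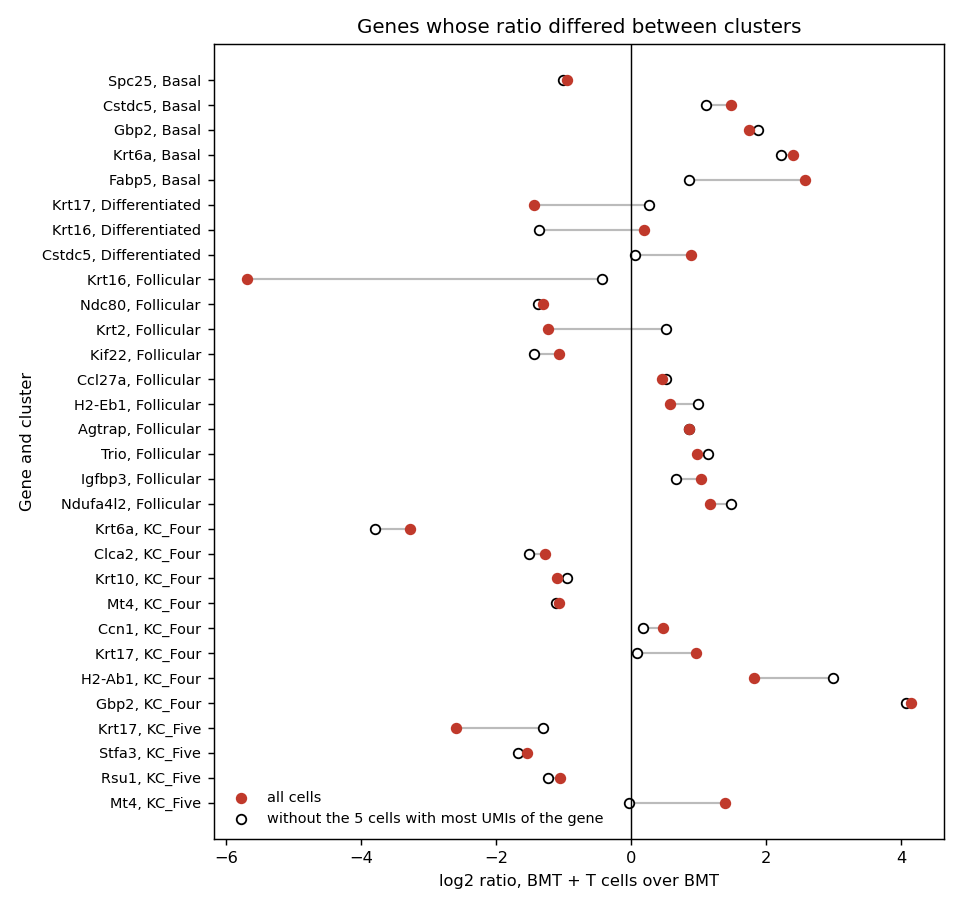
Log2 ratio, BMT + T cells over BMT (x axis), for the 30 pairs of gene and cluster (y axis) whose ratio differed between clusters, over all cells (red) and without the 5 cells of each library with most UMIs of the gene (open). Krt16 in Follicular cells moves from -5.69 to -0.42, while Krt6a and Clca2 in KC_Four and Ccl27a in Follicular cells stay in place or move away from 0. For Krt6a few UMIs were left in BMT + T cells.

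The largest single-cluster ratios otherwise rested on few cells. Ccer2 had 366 UMIs in 1 Follicular cell of BMT and 2 in 1 cell of BMT + T cells, Cck had 197 in 3 Follicular cells of BMT and 0 in BMT + T cells, and Krt6b had 143 in 1 Follicular cell of BMT and 1 in BMT + T cells. Gjb2, a gap junction gene, had 7 UMIs in 6 Basal cells of BMT and 302 in 11 cells of BMT + T cells. The neutrophil and keratinocyte alarmin S100a8 was found in 15 Basal cells of BMT and 56 of BMT + T cells, and S100a9 in 15 and 53. Of the genes past the fold upward in Basal cells, 67 of 79 were past it without their 5 highest cells, as were 12 of 12 downward. Gjb2 was still at 2.77 there without these cells, so the check cannot show that a ratio rested on many cells. In Follicular cells, 15 of 20 and 21 of 36 were, but there 5 cells are a larger part of the 278 and 259 cells.

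Markers of other cells were scarce in both libraries. The 13 listed T cell genes had 1273 UMIs in BMT and 987 in BMT + T cells, of which Trbc2, found in 621 and 485 cells, gave 1212 and 882. Ifng had 0 and 11 UMIs, the latter in 1 cell, and Cd8a had 0 in both. The 12 leukocyte, macrophage and Langerhans cell genes had 96 and 159 UMIs, with Ptprc at 0 and 3 and Tyrobp at 2 UMIs in 2 cells and 35 UMIs in 12 cells. Melanocyte genes had 377 and 361 UMIs, fibroblast genes 921 and 770, endothelial genes 32 and 39, red cell genes 97 and 48 and Merkel cell genes 39 and 10. When every cell with a UMI of a leukocyte marker other than Trbc2 was left out, 63 cells of BMT and 51 of BMT + T cells, none of 45 counts, list medians and cell shares moved beyond their limits. This set of markers was chosen after seeing the data.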

How the data were processed

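Cells were sorted and libraries made with the 10x Chromium 5' kit. The submitters' processing notes name GRCm38, kallisto, bustools and Seurat (versions not given in the sources used here). Per the study's methods, doublets, cells with few genes and cells with many mitochondrial reads were removed. The deposited expression values are the natural log of 1 plus UMIs per 10000 UMIs of the cell, and the deposited metadata give, as computed by the authors, the percent of mitochondrial UMIs and the cluster of each cell. Whole UMIs were recovered for 100% of 15311900 nonzero values (tolerance 0.001), 0 cells had under 500 genes, and 1 cell had over 20% mitochondrial UMIs.

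UMIs were summed per gene, cluster and library, scaled to 10000, and compared as log2 ratios. A count of 0 was set to 3. With 1 library per label no test was run, and intervals (95%, exact) cover counting error only. Ratios are described by a fold of 2 and a minimum of 100 UMIs. Named genes were the 12 highest and 12 lowest by mean ratio with 1 sign in all 5 clusters, up to 5 per cluster whose ratio differed between clusters, the 3 highest and 3 lowest per cluster, and members of 26 gene lists (410 entries). Clca2 and Kif22 fell outside this and were named after their values were seen. The clusters, lists and alternatives were chosen with earlier results of these data known. Alternatives were a mean over cells, centring on the median gene, other UMI minimums, thinning, a pseudocount, a lower fold, pooled clusters and leaving out cells. The calculation was tested on simulated counts. Promoter windows came from RefSeq tables (GRCm38.p6). Tables were handled with pandas 2.3.3 and numpy 2.4.6 under Python 3.11.15, intervals came from scipy 1.17.1, and plots from matplotlib 3.10.9. One member of a list is not reported here.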

Additional observations from a re-analysis of the deposited data

Results flagged for a closer look

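The log2 ratio of BMT + T cells over BMT pointed in opposite directions in different clusters, past the 2-fold limit on both sides, for 8 genes. With 1 library per label the difference between clusters was not tested. Krt16 was at 2.24 in Basal and -5.69 in Follicular cells, Krt6b at 4.56 and -7.00, Cstdc5 at 1.48 and -1.92, and Sprr1a at 1.86 and -1.78 in the same clusters. Krt6a was at 2.40 in Basal cells and -3.28 in KC_Four, and Fabp5 at 2.58 and -1.30. Ccl5 was at 3.55 in Basal and -5.15 in Differentiated cells, the latter against 0 UMIs set to 3. Mt4 was at 1.39 in KC_Five and -1.06 in KC_Four. The 5 cells of each library and cluster with most UMIs of the gene were then left out. In the clusters named above, the opposite directions past the fold remained for Krt6a (2.22 and -3.80) alone. Krt6a was found in 4% of the 150 KC_Four cells of BMT + T cells, so few of its UMIs were left behind the -3.80. Values without the 5 cells were 1.64 and -0.42 for Krt16, 1.10 and -0.42 for Cstdc5, -0.74 and -1.27 for Sprr1a, 0.87 and -1.09 for Fabp5, and -0.0326 and -1.11 for Mt4. In clusters not named above, Krt16 was then at -1.36 in Differentiated cells, and Cstdc5 at -1.10 in KC_Four and -1.14 in KC_Five. These values are past the fold and opposite to those of the same genes in Basal cells. No UMI was left for Ccl5 in either cluster or for Krt6b in Follicular cells, so no ratio is given for these 2 genes. Except for Mt4, the upward values were all in Basal cells. Most of these genes encode keratins, envelope proteins and lipid or protease binding proteins of stressed or differentiating epidermis.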

How the results depend on the processing

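The counts below are given without the number of genes measured, which changes with the UMI minimum and with thinning. Counts under those settings therefore cannot be read as a change in the share of genes that differ. With at least 30 UMIs a gene, the counts past the fold (upward and downward) were 168 and 63 in Basal, 86 and 74 in Differentiated, 104 and 116 in Follicular, 83 and 86 in KC_Four and 86 and 73 in KC_Five cells, with 15 genes upward and 1 downward in all 5 clusters and 39 genes differing between clusters. With at least 300 UMIs, there were 6 downward in Basal, 10 and 10 in Differentiated, 5 and 13 in Follicular, 10 and 6 in KC_Four and 6 and 2 in KC_Five cells, with 2 upward in all 5 and 5 differing. After thinning to 2500 UMIs per cell, there were 38 upward in Basal, 9 and 5 in Differentiated, 5 and 8 in Follicular, 4 and 5 in KC_Four and 7 and 0 in KC_Five cells, with 1 upward in all 5 and 3 differing. A pseudocount of 0.1 gave 38 and 4 in Basal, 13 and 10 in Differentiated and 12 and 16 in Follicular cells, 11 differing genes, and medians of 1.06 for GTPases and 1.47 for class II. At a fold of 1.5, the counts were 172 and 101, 96 and 70, 111 and 128, 94 and 102, and 58 and 71 in Basal, Differentiated, Follicular, KC_Four and KC_Five cells, and 15 upward in all 5. A mean over cells gave 9 downward in KC_Five and 3 upward in all 5. Without cells holding any leukocyte marker UMI, Trbc2 included (665 of BMT and 521 of BMT + T cells), there were 9 downward in Differentiated and 12 upward in Follicular cells and 2 upward in all 5. The shares of BMT and BMT + T cells then were 65.6% and 71.0% Basal, 14.0% and 10.7% Differentiated, 8.01% and 8.70% Follicular, and 6.73% and 4.88% KC_Four. Without the 5 cells with most UMIs of each gene, an alternative chosen after seeing the data, the downward counts were 22 in Basal, 29 in Differentiated, 31 in KC_Four and 17 in KC_Five cells.

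Lists with few or uneven members moved. The chemokine median of 0.37 was -0.11 at 30 UMIs, -0.0936 at 300, -0.20 thinned and -0.24 without leukocyte-marker cells. The melanocyte median of 0.71 was 1.37 as a mean over cells, -0.47 at 30 UMIs and 1.26 thinned, and the fibroblast median of 0.48 was 0.0481, -0.0122 and 0.0568 in these settings, 0.00125 at 300 UMIs and -0.37 without leukocyte-marker cells. The stress keratin median of -0.06 was 0.47 with clusters pooled. Of single genes, the mean ratio changed sign for Cxcl2 (5.05 to -0.0343), Ccer2 (-7.35 to 0.16), Cck (-5.88 to 0.16) and Krt6b (-1.22 to 0.56) without the 5 highest cells. For Cxcl2, Ccer2 and Cck at most 3 UMIs were then left in each library, so these values are those of the floor and not ratios of levels. For Krt6b no UMI was then left in Follicular cells or in Basal cells of BMT, so 0.56 rests on the floor too. Krt6b was also at 4.56 at 300 UMIs, 4.45 without leukocyte-marker cells and 1.82 pooled. The cause was not tested. Centring on the median gene, keeping cells with at least 5000 UMIs and keeping cells under 10% mitochondrial UMIs moved none of the 35, 10 and 10 counts, medians or shares computed under them.

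No paired analysis was possible because each label has 1 library, and for the same reason no replicate was left out. Depth limits genes such as Ciita, Irf1, Cxcl10 and Cd274, which had too few UMIs for a ratio.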

Other observations

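Ribosomal protein genes, chosen for description after their values were seen, were higher in BMT + T cells by small and even amounts. Of 73 such genes measured in all 5 clusters, 52 were above 0 in every cluster and 3 below 0 in every cluster, beside 10.5% and 18% of all genes, and the median of their mean log2 ratios was 0.12. Rpl36 was at 0.61 (mean 0.61 over clusters), and Rpl38 at 0.53, 0.55, 0.54, 0.48 and 0.46 in Basal, Differentiated, Follicular, KC_Four and KC_Five cells. Rpl35 was at 0.46 in Basal cells. The 13 measured genes of the mitochondrial genome lay slightly below 0, with a median of -0.11 and none above 0 in every cluster. Many ribosomal protein genes have processed copies in the genome, so the assignment of reads to them is uncertain.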
